A study of Mus musculus with 12 samples.

Results

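Transcript levels of 33 genes of the lysosome were followed in RNA sequencing libraries of mouse brain cells. The genes were taken by symbol from a fixed list that was chosen with earlier results of these data known. They were matched to the Ensembl identifiers of the count tables, and all 33 were found among the 41388 genes of each table. They encode 8 proteases, 7 glycosidases, progranulin, 5 lipid-handling proteins, 6 membrane proteins and 6 subunits of the proton pump. All 33 passed the filter on low counts in each comparison, so none was lost, and the lowest count of any of them in any library was 54, for Naglu.

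The lysosome is the acidic organelle in which cells degrade proteins, glycans, lipids and worn-out organelles. Its soluble hydrolases work at low pH, which a proton-pumping ATPase in the lysosomal membrane maintains, while membrane proteins carry ions and digestion products across. In the brain, microglia are known for high levels of lysosomal proteases, and inherited loss of many of these genes causes storage disorders with neurodegeneration.

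The study asked what loss of the clock transcription factor Bmal1 (gene symbol Arntl) does to astrocytes of young mice. All 8 animals were of the strain Bmal fl/fl; ALDH1L1-CreERT2 on a C57BL\6 background, and all, Cre-negative ones included, were dosed with tamoxifen when 2 months old (2 mg daily over 5 days). CreERT2 is a recombinase that tamoxifen activates, here driven by the astrocyte gene Aldh1l1, so the deletion is aimed at astrocytes and not at the other cells of the brain. Brains were taken at 7 months, and magnetic beads against ACSA-2, an astrocyte surface antigen, split the digested cells into isolated astrocytes and the unretained rest, called flowthrough. Astrocytes came from 5 Cre-positive animals (astrocyte knockout, aKO; animals 203, 205, 208, 221 and 222) and from 3 Cre-negative ones (wild type, WT; animals 201, 202 and 265). Flowthrough came from 2 aKO animals (203 and 205) and 2 WT animals (201 and 202), so 4 animals gave both fractions. The title of astrocyte library 202 says wild type and its genotype field says knockout. It was kept as WT. Titles of all flowthrough libraries carry a letter b of unstated meaning, which cannot be told apart from the fraction.

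Total counts were between 21816637 and 62655238 in astrocyte libraries and between 33019572 and 53868165 in flowthrough. Arntl, counted over the whole gene, had 5.91 to 17.5 CPM in aKO astrocytes and 2.23 to 7.52 CPM in WT astrocytes; such a count checks neither the deletion nor the labels. In the astrocyte fraction 12 astrocyte marker genes together took 0.367% to 1.60% of counts, against 0.0374% to 0.579% in flowthrough, and 9 of the 12 were higher there. Of 12 microglial markers all 12 were lower in astrocytes, with a summed share of 0.0348% to 0.0765%, against 0.726% to 1.22% in flowthrough. Of 9 leukocyte markers all 9 were lower as well, at 0.00815% to 0.0358% against 0.155% to 0.393%, with Elane at 0 in at least 1 library. Oligodendrocyte markers were higher in astrocytes for 7 of 9 genes and neuronal markers for 4 of 8. Markers of border macrophages, oligodendrocyte precursors, endothelium, mural cells, choroid plexus and ependyma passed the test in neither direction, although the choroid plexus share was 1.22% to 17.1% in astrocytes and 8.28% to 32.2% in flowthrough. Mitochondrially encoded genes took 11.1% to 36.5% of counts in astrocytes and 4.81% to 12.9% in flowthrough. In libraries of mixed cells, fewer cells of a type and less RNA per cell cannot be told apart.

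Set against flowthrough, the isolated astrocytes had lower levels of 7 of the 33 lysosome genes and higher levels of none. The 7 were progranulin, the proteases legumain, cathepsin Z and cathepsin D, and the glycosidases Naglu, Hexa and Gusb, with levels 2.21 to 6.30 times lower. They are 21.2% of the genes, where 8.52% of all 20637 genes tested were lower and 8.52% were higher (edgeR's quasi-likelihood test, Benjamini-Hochberg adjusted p under 0.05). At an unadjusted p under 0.05 there were 11 lysosome genes (33.3%, background 32%), all of them lower (background 14.6% for that direction), and DESeq2 and limma voom also called 0 higher. The fold changes of 24 of the 33 lay below 0 and those of 9 above, with a median log2 fold change of -0.39, against 0.07 over all genes tested. The microglial and leukocyte markers were lower and the mitochondrial share was mostly higher in the same comparison, and their part in these differences was not tested.

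Promoter sequence is shown for the 3 most clearly lower genes that hold the hexamer CACGTG near a start site. CACGTG is the core of the E-box that clock factors such as BMAL1 bind and also of the element bound by TFEB, a transcription factor known for driving lysosomal genes. The windows are from RefSeq (GRCm38.p6) and run from 250 bases before to 50 bases after the start site, 5′ to 3′ on the gene's strand, with CACGTG in capitals. The Lgmn window is chr12:102439043-102439342 on the minus strand, and its hexamer begins 49 bases before the start. Lgmn has 2 windows, of which only this 1 holds CACGTG. It lies inside the gene's span, which runs on to 102439813. The Naglu window is chr11:101069844-101070143 on the plus strand, with the hexamer 73 bases before the start. The Ctsd window is chr7:142387778-142388077 on the minus strand, with hexamers at 245 and 98 bases before the start.
Lgmn: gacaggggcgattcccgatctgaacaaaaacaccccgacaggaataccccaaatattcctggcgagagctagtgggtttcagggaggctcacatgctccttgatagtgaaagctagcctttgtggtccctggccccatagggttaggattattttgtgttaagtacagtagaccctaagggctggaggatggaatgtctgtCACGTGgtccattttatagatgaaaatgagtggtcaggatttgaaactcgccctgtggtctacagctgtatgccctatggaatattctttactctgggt
Naglu: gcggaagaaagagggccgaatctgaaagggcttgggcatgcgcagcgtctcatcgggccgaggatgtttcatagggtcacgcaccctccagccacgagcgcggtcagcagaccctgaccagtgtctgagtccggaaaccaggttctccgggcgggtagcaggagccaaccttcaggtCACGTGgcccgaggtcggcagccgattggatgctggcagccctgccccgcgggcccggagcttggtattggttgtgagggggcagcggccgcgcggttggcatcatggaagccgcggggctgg
Ctsd: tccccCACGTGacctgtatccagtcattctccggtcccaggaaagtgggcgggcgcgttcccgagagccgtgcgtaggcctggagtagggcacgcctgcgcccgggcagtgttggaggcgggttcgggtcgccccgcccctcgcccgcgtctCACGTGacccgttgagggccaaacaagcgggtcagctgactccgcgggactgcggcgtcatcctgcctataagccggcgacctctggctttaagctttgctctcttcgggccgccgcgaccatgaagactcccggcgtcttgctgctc

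Of the 33 genes 28 had a promoter window in the RefSeq table, and 13 of these (46.4%) held CACGTG in at least 1 window. The hexamer reads the same on both strands. It was found for 8.09% of all 27025 genes with windows of the same length, and for 19 of 78 genes (24.4%) of 5 wider lysosomal lists. By role it was held by 5 of 7 proteases, 3 of 7 glycosidases, 3 of 5 membrane proteins, 2 of 4 pump subunits, 0 of 4 lipid-handling genes, and not by Grn. Of the 7 genes that were lower in astrocytes 3 held it, and of the 21 others with a window 10 did. A match describes the letters of these windows and is neither a binding site nor a cause.

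**Figure D1:**
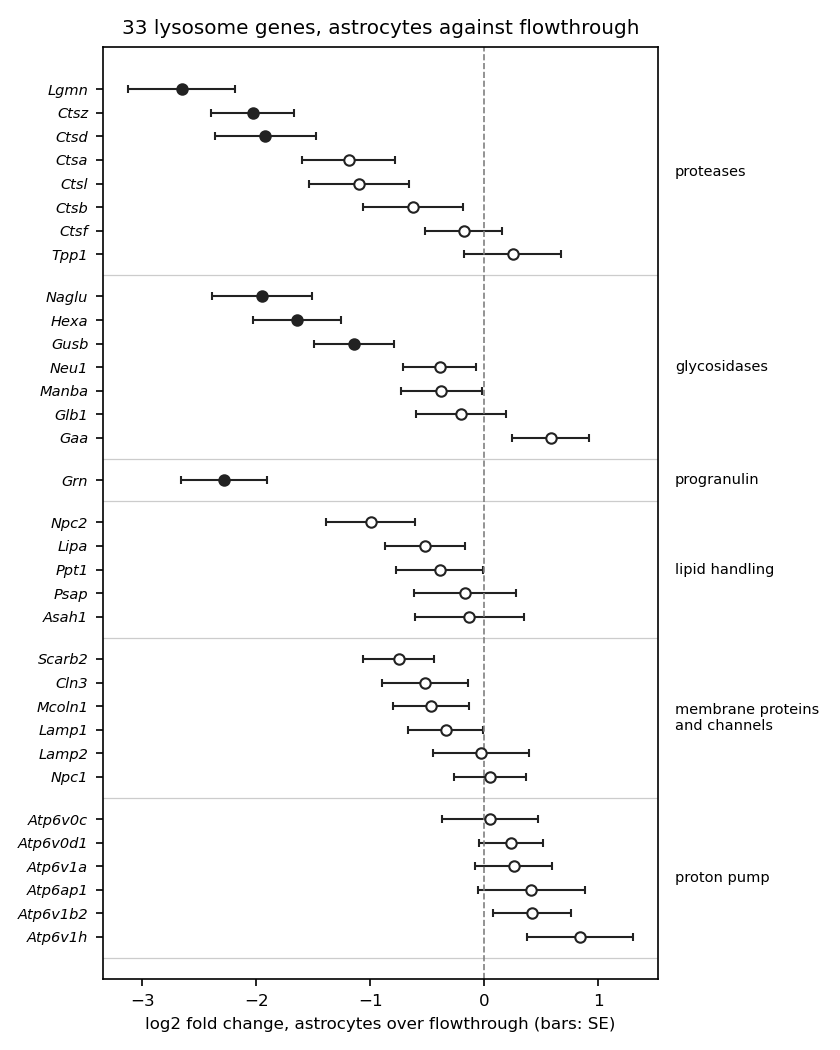
Log2 fold change of each of the 33 lysosome genes in astrocytes over flowthrough (x axis) with its standard error (bars), sorted by role; filled points passed the adjusted test. The 7 filled points lie left of 0, from -2.66 for Lgmn to -1.14 for Gusb, and the 6 pump subunits lie right of 0 with open points.

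Levels below are CPM scaled with TMM factors over all 12 libraries, and libraries of a group are listed by rising animal number. Grn encodes progranulin, a secreted protein that is carried to the lysosome and cut into granulins. Grn had 61.1, 91.0, 102, 80.4 and 33.1 CPM in aKO astrocytes and 101, 61.8 and 32.3 CPM in WT astrocytes, against 258 and 243 CPM in aKO flowthrough and 521 and 384 CPM in WT flowthrough. All 8 astrocyte libraries lay below all 4 flowthrough libraries. Grn averaged 70.3 ± 27.9 CPM in astrocytes (SD, n = 8) and 352 ± 129 CPM in flowthrough (SD, n = 4), a log2 fold change of -2.28 (SE 0.38, edgeR adjusted p = 0.000502). The gene lies on chromosome 11 at 102430315 to 102437048 of GRCm38, and 1.96% of its exon bases overlap Fam171a2 on the other strand.

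Among the proteases, Lgmn encodes legumain, an asparaginyl endopeptidase that also processes cathepsins. Lgmn had 188, 194, 272, 215 and 42.4 CPM in aKO astrocytes and 252, 169 and 55.6 CPM in WT astrocytes, against 574 and 677 CPM in aKO flowthrough and 2115 and 1571 CPM in WT flowthrough. The fractions did not overlap, and aKO 222 and WT 265 were the lowest libraries. The log2 fold change was -2.66 (SE 0.47, edgeR adjusted p = 0.000948), the largest of the 33. Ctsz encodes cathepsin Z, a carboxypeptidase. Ctsz had 112, 159, 232, 129 and 124 CPM in aKO astrocytes and 184, 119 and 73.4 CPM in WT astrocytes, against 432 and 221 CPM in aKO flowthrough and 1145 and 800.4 CPM in WT flowthrough. Astrocyte library aKO 208 lay above flowthrough library aKO 205, so the ranges overlapped. Its log2 fold change was -2.03 (SE 0.37, edgeR adjusted p = 0.00108). Ctsd encodes cathepsin D, the main aspartic protease of the lysosome. Ctsd had 900.3, 1106, 1426, 729.5 and 399 CPM in aKO astrocytes and 1498, 790.3 and 355 CPM in WT astrocytes, against 2814 and 1582 CPM in aKO flowthrough and 5377 and 5093 CPM in WT flowthrough. No astrocyte library reached the flowthrough range, although WT astrocyte library 201 came close to flowthrough library aKO 205. Its log2 fold change was -1.92 (SE 0.44, edgeR adjusted p = 0.00694), and 6.47% of its exon bases overlap Ifitm10 on the same strand. In GRCm38 Lgmn spans 102394084 to 102439813 on chromosome 12, Ctsz 174427493 to 174439039 on chromosome 2 and Ctsd 142371148 to 142388038 on chromosome 7.

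The other 5 proteases did not pass the test. Cathepsin A, the protective protein of lysosomal sialidase and galactosidase, came nearest with a log2 fold change of -1.19 (SE 0.41, edgeR adjusted p = 0.0537), and 17.4% of the Ctsa exon bases overlap other genes. The cysteine proteases had log2 fold changes of -1.10 (Ctsl, SE 0.44), -0.63 (Ctsb, SE 0.44) and -0.18 (Ctsf, SE 0.34). Ctsl was at -0.24 without flowthrough aKO 203 and at -1.45 without flowthrough aKO 205. The value of Tpp1, a tripeptidyl peptidase, was 0.25 (SE 0.43). Summed over the 8 proteases, the level was 2775 ± 1106 CPM in astrocytes (SD, n = 8) and 8468 ± 4419 CPM in flowthrough (SD, n = 4).

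Among the glycosidases, Naglu encodes the glucosaminidase that trims heparan sulfate. Naglu had 4.39, 12.0, 11.9, 4.44 and 2.75 CPM in aKO astrocytes and 7.83, 2.27 and 8.36 CPM in WT astrocytes, against 21.3 and 44.4 CPM in aKO flowthrough and 26.7 and 13.4 CPM in WT flowthrough. The fractions did not overlap, with the narrowest gap to WT flowthrough library 202, and the log2 fold change was -1.95 (SE 0.44, edgeR adjusted p = 0.00577). Hexa encodes the alpha subunit of the hexosaminidase that degrades gangliosides. Hexa had 69.1, 78.0, 54.8, 78.6 and 22.2 CPM in aKO astrocytes and 89.6, 42.9 and 35.3 CPM in WT astrocytes, against 128 and 229 CPM in aKO flowthrough and 129 and 240.2 CPM in WT flowthrough. All astrocyte libraries were lower, and the log2 fold change was -1.64 (SE 0.39, edgeR adjusted p = 0.00807). Gusb encodes beta-glucuronidase. Gusb had 19.7, 24.5, 19.3, 25.4 and 10.1 CPM in aKO astrocytes and 20.6, 18.3 and 6.43 CPM in WT astrocytes, against 25.1 and 50.3 CPM in aKO flowthrough and 30.3 and 47.6 CPM in WT flowthrough. Astrocyte library aKO 221 slightly exceeded flowthrough library aKO 203, and the log2 fold change was -1.14 (SE 0.35, edgeR adjusted p = 0.0326). In GRCm38 Naglu spans 101070012 to 101077672 on chromosome 11, Hexa 59539667 to 59565105 on chromosome 9 and Gusb 129989011 to 130003049 on chromosome 5.

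The call for Gusb was the least stable of the 7. It passed in 13 of 21 alternatives, and leaving out any of 6 libraries ended it: flowthrough WT 201, WT 202 or aKO 205, or astrocytes aKO 203, aKO 208 or WT 265. In the fit with a replicate block for the animal, made on the 4 brains that gave 2 libraries each, its log2 fold change was -0.81 and did not pass, nor did it in the same 8 libraries without a block (-0.87). Without flowthrough library aKO 205, Hexa (-1.38), Naglu (-1.61) and Gusb (-0.83) did not pass. The other glycosidases had log2 fold changes of -0.39 (Neu1, a sialidase, SE 0.32), -0.38 (Manba, a mannosidase, SE 0.36), -0.20 (Glb1, a galactosidase, SE 0.39) and 0.58 (Gaa, which degrades glycogen, SE 0.34). None of these passed.

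**Figure D2:**
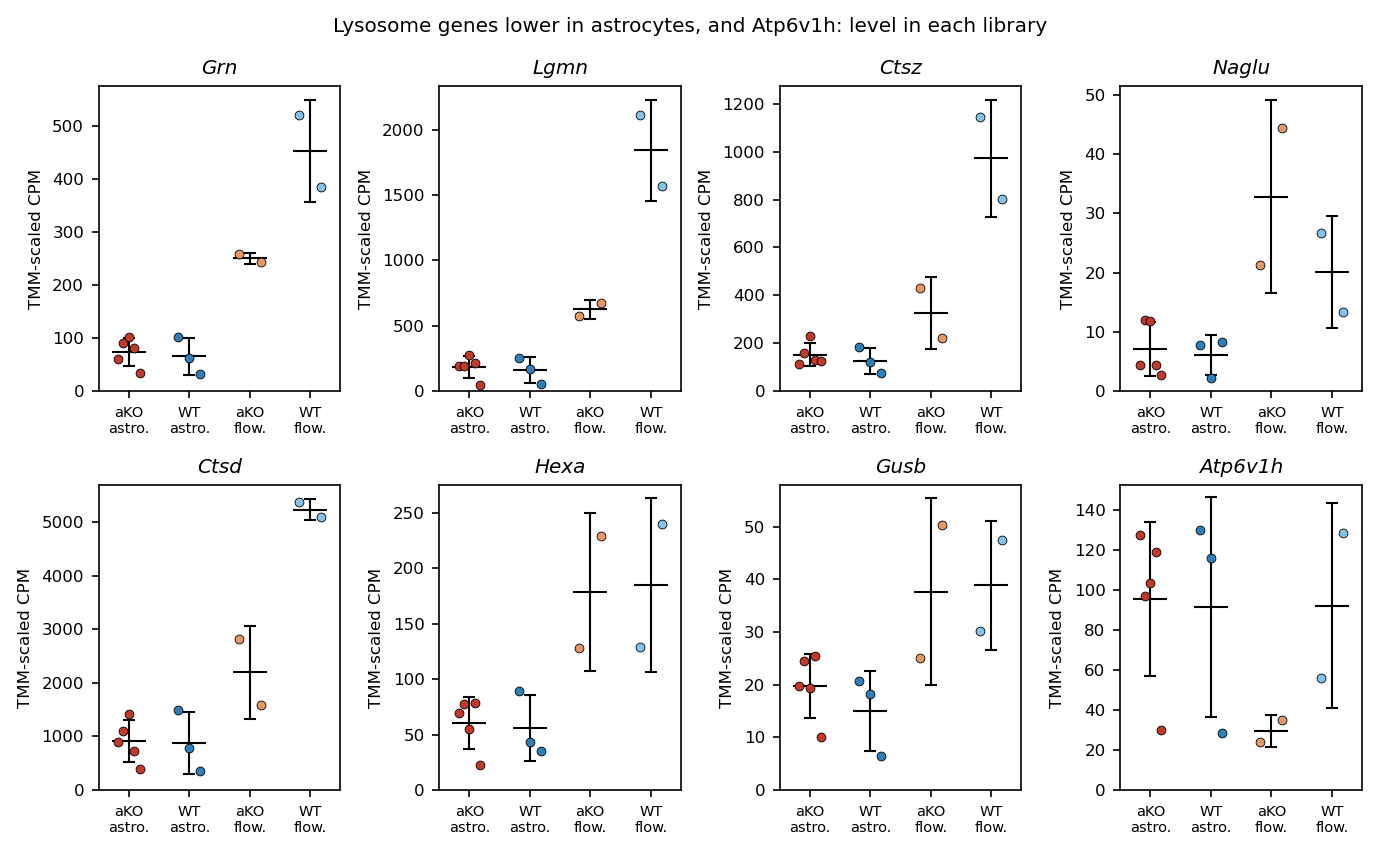
Level in each library (TMM-scaled CPM, y axis, from 0) of the 7 lysosome genes that were lower in astrocytes and of the pump subunit Atp6v1h, in aKO and WT astrocytes and aKO and WT flowthrough; points are libraries, lines the group mean and bars the SD. Grn, Lgmn, Naglu, Ctsd and Hexa show no overlap between the 8 astrocyte and 4 flowthrough libraries.

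Groups without overlap were found for 5 of the 33 genes in the lower direction (15.2%, background 5.93%) and for 0 in the higher direction (background 5.01%). Within animals the same comparison can be made for 4 pairs of libraries. In all 4 animals 10 genes were lower in astrocytes than in the flowthrough of the same brain, namely the 7 above and Scarb2, Mcoln1 and Neu1, where 20.5% of all genes were lower in each animal. In all 4 animals 4 genes were higher (12.1%, background 27.3%), namely Gaa and the pump subunits Atp6v0d1, Atp6v1a and Atp6v1b2. Flowthrough exceeded astrocytes for Grn by 5.15, 6.22, 4.22 and 2.67 times in animals 201, 202, 203 and 205. For Lgmn these ratios were 8.38, 9.28, 3.05 and 3.5, and for Ctsz 6.23, 6.71, 3.85 and 1.39. Animal 205 had the smallest ratio for Grn and Ctsz, and animal 203 for Lgmn. With the animal as a block, Scarb2 (-0.89) passed in addition and Gusb did not.

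Lipid-handling and membrane genes showed no call in either direction. The log2 fold changes of all 5 lipid-handling genes were below 0. They were -0.998 (SE 0.39) for Npc2, which binds cholesterol in the lumen, -0.52 (SE 0.35) for the acid lipase gene Lipa, -0.39 (SE 0.38) for the thioesterase gene Ppt1, -0.17 (SE 0.45) for Psap, the precursor of the saposins, and -0.13 (SE 0.48) for the ceramidase gene Asah1. Of the membrane proteins, Scarb2, the receptor that carries glucocerebrosidase to the lysosome, had -0.75 (SE 0.31). Cln3 had -0.52 (SE 0.38), the cation channel Mcoln1 -0.46 (SE 0.33) and the abundant membrane glycoprotein Lamp1 -0.34 (SE 0.33). Lamp2, which also serves autophagy, was at -0.03 (SE 0.42) and the cholesterol exporter Npc1 at 0.05 (SE 0.31). Without flowthrough aKO 203 Npc2 was at -0.32, and without flowthrough aKO 205 at -1.32. The values of Psap, Asah1, Lamp2 and Npc1 changed sign under some of the alternatives, as did those of Ctsf and Glb1.

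The 6 listed genes of the proton pump all had log2 fold changes above 0, with a median of 0.34, and none passed the test. Over all 20637 genes tested, 10966 lay above 0. The 13 other pump subunits tested had a median of -0.47, with 5 above 0 and 8 below. Atp6v1h, a regulatory subunit of the cytosolic sector, had 128, 97.1, 104, 119 and 29.9 CPM in aKO astrocytes and 129.9, 116 and 28.5 CPM in WT astrocytes, against 24.0 and 35.1 CPM in aKO flowthrough and 56.1 and 128 CPM in WT flowthrough. The ranges overlapped almost fully, since aKO 222 and WT 265 lay at the bottom and flowthrough WT 202 near the top. Its log2 fold change was 0.84 (SE 0.46, edgeR adjusted p = 0.225). It passed without libraries aKO 222 and WT 265 (1.18) and with the animal as a block (1.25). Atp6v1a, the catalytic subunit gene, had 0.26 (SE 0.34), Atp6v1b2, whose product binds nucleotide without catalysis, had 0.42 (SE 0.34), and the accessory subunit gene Atp6ap1 had 0.41 (SE 0.47). In the membrane sector the values were 0.24 (Atp6v0d1, SE 0.28) and 0.05 (Atp6v0c, SE 0.42). The Atp6v0c value is uncertain, since its sign turned in 3 alternatives and with single libraries left out. The pseudogene Atp6v0c-ps2 drew up to 2404 counts, and whether reads of the gene and the pseudogene were mixed was not tested. Together the 6 genes had 969 ± 161 CPM in astrocytes (SD, n = 8) and 848 ± 291 CPM in flowthrough (SD, n = 4).

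The wider lists of lysosomal genes hold 101 further genes, of which 100 were tested. In astrocytes 17 of the 100 were lower and 0 higher, where 8.52% of all genes were lower (edgeR adjusted p under 0.05). At an unadjusted p under 0.05 there were 31 of the 100, near the 32% of all genes. With the replicate block 24 were lower (background 13.6%) and 8 higher (background 15.9%), namely Atp6v0a1, Atp6v0e2, Atp6v1g2, Idua, Lmbrd1, Mfsd8, Vps11 and Vps41. DESeq2 called 21 lower (background 11%) and 3 higher (background 12.7%), Abcb9, Lmbrd1 and Mfsd8. Of 33 other hydrolases and activators 9 were lower (27.3%). Among them were the protease gene Ctss (-4.54, SE 0.52), the phospholipase gene Pla2g15 (-2.58, SE 0.37) and the mannosidase gene Man2b1 (-2.33, SE 0.38). Of 19 other membrane proteins 2 were lower (10.5%, near the 8.52% of all genes). These were the leukocyte protein gene Laptm5 (-3.74, SE 0.38) and the macrophage glycoprotein gene Cd68 (-3.79, SE 0.50). Of 13 other pump subunits 1 was lower (7.69%), Tcirg1 (-1.97, SE 0.34), a membrane-sector subunit known from osteoclasts. With the replicate block Atp6v0e (-1.57) and Atp6v1f (-1.58) passed as lower too.

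Of 18 sorting genes 2 were lower (11.1%, near the 8.52% of all genes). These were Nagpa (-1.81, SE 0.33), whose product uncovers the mannose phosphate tag of hydrolases, and Vps18 (-1.39, SE 0.31), which encodes a tethering subunit. Of 17 regulatory genes 3 were lower (17.6%). Rptor (-1.27, SE 0.27) encodes a partner of the growth kinase mTOR. The others were the transcription factor genes Tfe3 (-1.37, SE 0.31) and Tfeb (-1.30, SE 0.43). The call for Tfeb (edgeR adjusted p = 0.0457) was kept in 10 of 21 alternatives and was lost on leaving out any of 8 libraries: flowthrough WT 201 or aKO 205, or astrocytes WT 201, WT 202, aKO 203, aKO 208, aKO 221 or aKO 222.

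Levels per length, given as CPM per kilobase of exon, rank the 33 genes within each fraction. In astrocytes Ctsd came first at 358 ± 169, before Psap at 236 ± 155 and Ctsb at 181 ± 73.9 (SD, n = 8). In flowthrough Ctsd was again first at 1476 ± 726, before Lgmn at 531 ± 318 and Ctsz at 451 ± 283 (SD, n = 4). The levels of these neighbours lay within 1 SD of each other in both fractions, apart from Ctsd in flowthrough. Manba was last in both, at 1.06 ± 0.428 in astrocytes and 1.39 ± 0.354 in flowthrough. Psap had 519, 619.9, 752, 361 and 187 CPM in aKO astrocytes and 1602, 643 and 486 CPM in WT astrocytes, against 663 and 505 CPM in aKO flowthrough and 613 and 1309 CPM in WT flowthrough. WT 201 stood far above the other astrocyte libraries. Of the summed CPM of all 33 genes, Ctsd made up 14.7% ± 2.99 in astrocytes (SD, n = 8) and 28.7% ± 2.58 in flowthrough (SD, n = 4).

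The summed level of the 33 genes was 6020, 6069, 7727, 5555 and 3381 CPM in aKO astrocytes and 8843, 5926 and 3397 CPM in WT astrocytes, against 9875 and 6305 CPM in aKO flowthrough and 17588 and 16665 CPM in WT flowthrough. Both WT flowthrough libraries were far above the rest, and flowthrough library aKO 205 lay within the astrocyte range. The means were 5865 ± 1881 CPM in astrocytes (SD, n = 8) and 12608 ± 5430 CPM in flowthrough (SD, n = 4).

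The astrocyte libraries differed among themselves. Libraries aKO 222 and WT 265 were both below the other 6 astrocyte libraries for 17 of the 33 genes (51.5%), where 18.1% of 15405 tested genes with a mean of at least 1 CPM showed this order. Relative to the median of the other 6, aKO 222 and WT 265 had 0.16 and 0.30 times the level of Asah1, 0.20 and 0.25 times that of Atp6ap1 and 0.21 and 0.27 times that of Lgmn. Other genes did not share this drop. The ratios were 1.14 and 1.17 for Lamp1, 1.17 and 1.28 for Npc2, and 1.68 and 1.57 for Mcoln1, and Atp6v0c (1.74 and 1.56) was above the other 6 in both libraries. The same libraries had the lowest summed share of astrocyte markers in the astrocyte fraction, 0.545% and 0.367% against 0.664% to 1.60% in the others. They also had the lowest share of oligodendrocyte markers, 0.361% and 0.347% against 0.962% or more in the others. Their ependymal marker shares, 0.123% and 0.224%, were the highest of the astrocyte libraries. Library aKO 222 had the highest mitochondrial share (36.5%) and WT 265 the highest choroid plexus share (17.1%). The part of these in the spread was not tested. Each of the 7 genes lower in astrocytes was still lower without both libraries.

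**Figure D3:**
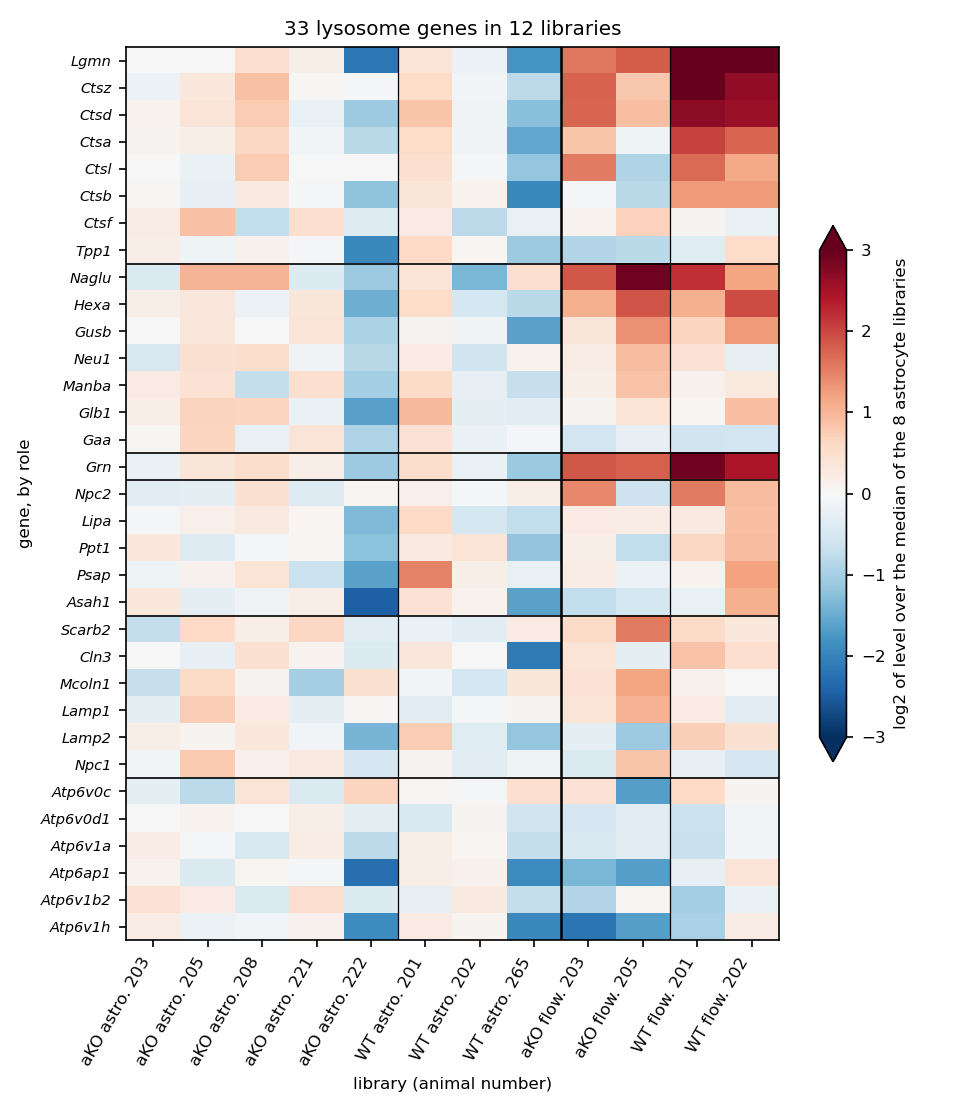
Level of the 33 lysosome genes (rows, by role) in the 12 libraries (columns), as log2 of the level over the median of the 8 astrocyte libraries; colours are capped at 3 in both directions. Red cells of Lgmn, Ctsz, Ctsd, Naglu, Hexa and Grn mark the flowthrough libraries. Blue cells mark aKO 222 and WT 265 for the 17 genes in which both lay below the other 6 astrocyte libraries. Atp6v0c, Mcoln1, Npc2 and Lamp1 lay above the median in both.

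Loss of Bmal1 in astrocytes was compared next, with the genotype given by the titles. In the astrocyte fraction no lysosome gene passed the test between aKO and WT animals. Of the 33 genes 0 passed in either direction, where 0.0211% of 18950 genes were higher and 0.00528% were lower (edgeR's quasi-likelihood test, Benjamini-Hochberg adjusted p under 0.05). At an unadjusted p under 0.05 there were also 0 of the 33, against 1.58% of all genes, and DESeq2 and limma voom called 0. The fold changes of 22 genes lay above 0 and of 11 below, with a median log2 fold change of 0.08, against 0.02 over all genes, and a range of -0.88 to 0.42. No gene had groups without overlap, where 0.976% of all genes were without overlap in the higher and 0.496% in the lower direction. Standard errors of single genes ran from 0.33 to 0.55 on the log2 scale, which limits the size of change that could be seen.

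Psap, whose product is cut into activators of sphingolipid hydrolases, had the smallest p of the 33. Its log2 fold change was -0.88 (SE 0.52, edgeR unadjusted p = 0.114, adjusted p = 0.9997). The value rests on WT library 201, without which it was -0.21, while without WT 265 it was -1.15. Gusb was at 0.42 (SE 0.40), and its levels given above overlapped widely between the genotypes. It was 0.68 without WT 201 and 0.0754 without WT 265. Ctsf, a cysteine protease, had 40.2, 63.9, 20.9, 49.0 and 26.4 CPM in aKO astrocytes and 40.9, 19.99 and 29.9 CPM in WT astrocytes, against 37.2 and 56.0 CPM in aKO flowthrough and 36.5 and 30.2 CPM in WT flowthrough. The astrocyte ranges overlapped, with a genotype log2 fold change of 0.41 (SE 0.41). Counting library 202 as aKO, as its genotype field has it, gave 0.0409, and single libraries left out gave 0.17 to 0.68, with the lowest value without WT 202 and the highest without WT 201. Atp6v0d1, a membrane-sector pump subunit, had 60.5, 65.3, 60.2, 69.7 and 50.03 CPM in aKO astrocytes and 43.8, 63.5 and 39.99 CPM in WT astrocytes, against 42.3 and 48.5 CPM in aKO flowthrough and 38.7 and 56.9 CPM in WT flowthrough. WT 202 lay within the aKO range, with a genotype log2 fold change of 0.32 (SE 0.33), or 0.53 with library 202 as aKO and 0.52 without it.

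In flowthrough, the fraction lower in astrocyte markers, 0 of the 33 genes passed between aKO and WT animals, as did 0% of the 20637 genes tested (edgeR, Benjamini-Hochberg adjusted p under 0.05; 0 also with DESeq2 and limma voom). Unadjusted p-values under 0.05 were found for 4 lysosome genes, all lower in aKO (12.1%), where 3.96% of all genes reached that level and 2.17% did so as lower. These were Ctsz (-1.58, SE 0.62), Ctsb (-1.68, SE 0.74), Atp6v1h (-1.64, SE 0.74) and Ctsa (-1.46, SE 0.69). Their edgeR unadjusted p-values were 0.0216, 0.0367, 0.0416 and 0.0490 in that order, and each had an edgeR adjusted p of 0.8045. Ctsb encodes cathepsin B, a cysteine protease that also trims peptides. Ctsb had 988, 811, 1155, 942 and 415 CPM in aKO astrocytes and 1244, 1043 and 254 CPM in WT astrocytes, against 921 and 555 CPM in aKO flowthrough and 2356 and 2356 CPM in WT flowthrough. Ctsa had 227, 242, 330.2, 206 and 123 CPM in aKO astrocytes and 319, 202 and 73.5 CPM in WT astrocytes, against 385 and 198 CPM in aKO flowthrough and 875 and 725 CPM in WT flowthrough. For both genes the 2 WT flowthrough libraries stood above every other library. Exon bases shared with other genes made up 16.2% of Ctsb.

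Over the 33 genes, 23 had flowthrough fold changes below 0 and 10 above, with a median log2 fold change of -0.54, against 0.07 over all genes. With 2 libraries a group, both aKO libraries were below both WT libraries for 14 genes (42.4%, background 13.6%) and above for 4 (12.1%, background 20%). The 14 include 6 proteases, Grn, the pump subunits Atp6v1h and Atp6ap1 and 3 lipid-handling genes, and the 4 are Lamp1, Scarb2, Mcoln1 and Ctsf. Library aKO 205 was the lowest of the 4 flowthrough libraries for 14 genes and the highest for 11. Microglial markers took 0.726% and 0.959% of counts in the aKO flowthrough libraries and 0.923% and 1.22% in the WT ones. Leukocyte markers took 0.307% and 0.393% in aKO flowthrough and 0.155% and 0.274% in WT flowthrough. Astrocyte markers took 0.0374% and 0.184% in aKO flowthrough and 0.0645% and 0.579% in WT flowthrough. Their part in the differences was not tested.

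The difference of the genotype effects, astrocytes minus flowthrough, passed for 0 of the 33 genes, as for 0% of all genes (edgeR adjusted p under 0.05; 0 also with DESeq2 and limma voom). One lysosome gene had an unadjusted p under 0.05, against 2.42% of all genes (1.02% in the lower direction). It was Ctsz, with a difference of 1.84 on the log2 scale (SE 0.76, edgeR unadjusted p = 0.0277, adjusted p = 0.9556). Ctsb (1.70, SE 0.90) and Ctsa (1.65, SE 0.84) followed. The genotype effects were thus not shown to differ between the fractions for any of the 33 genes. Of the 100 tested genes of the wider lists 0 passed by genotype in either fraction with edgeR, and 0 in astrocytes (background 1.58%) and 5 in flowthrough (background 3.96%) had an unadjusted p under 0.05.

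**Figure D4:**
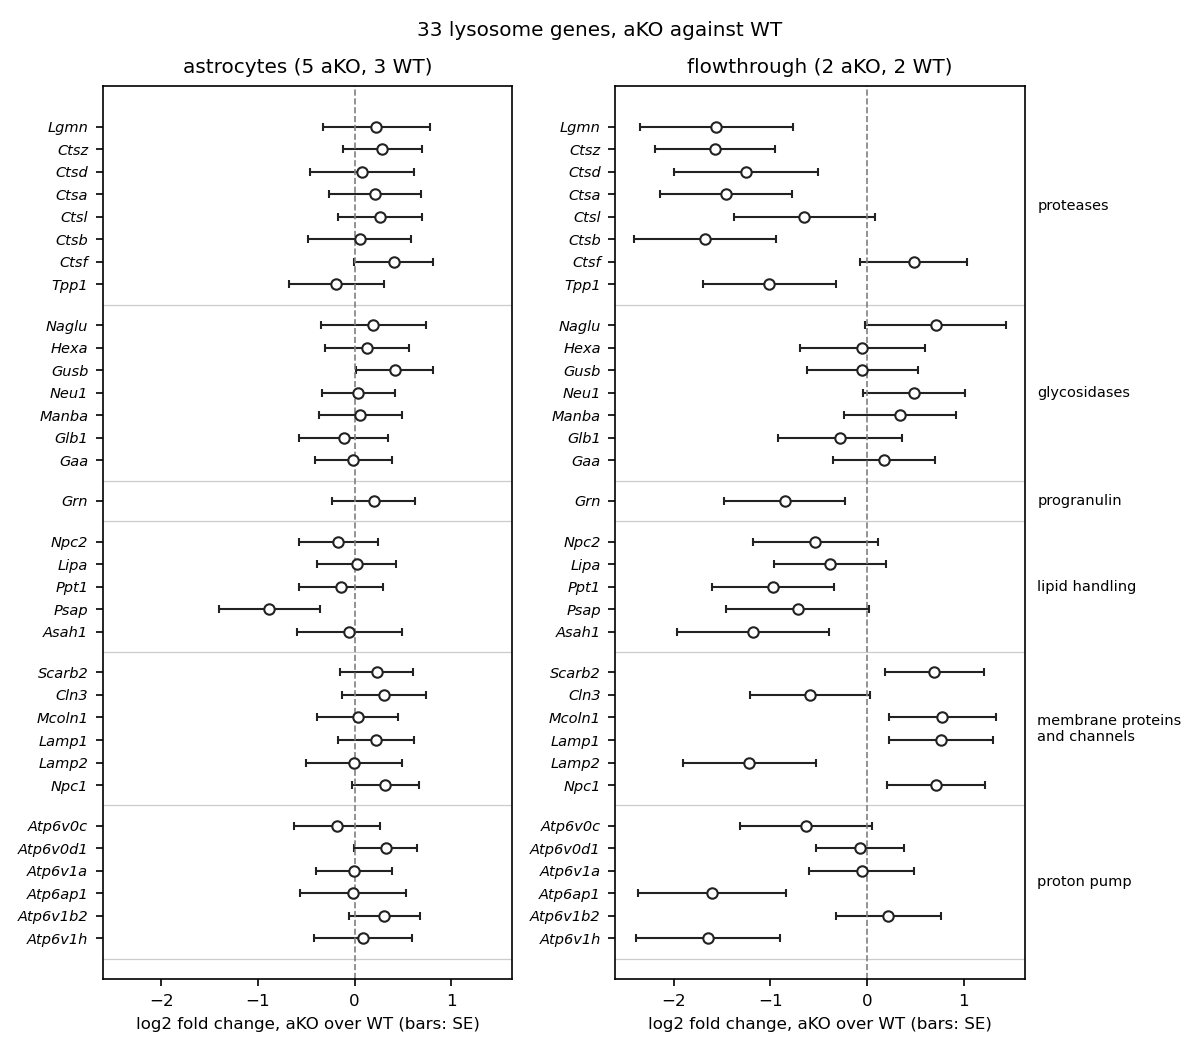
Log2 fold change of the 33 lysosome genes in aKO over WT animals (x axis) with standard errors (bars), in astrocytes (left, 5 aKO and 3 WT libraries) and flowthrough (right, 2 and 2); no point passed the adjusted test. In astrocytes the points lie between -0.88 and 0.42, and in flowthrough 23 of the 33 lie left of 0.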

How the data were processed

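RNA was sequenced from 8 astrocyte and 4 flowthrough libraries of 8 mice after SMARTer amplification. The submitters' processing notes name GRCm38 and the tools bcl2fastq, STAR (2.5.1a), featureCounts (1.4.6-p5) and Subread. Annotation release, strand setting and handling of multi-mapped reads are not given in the sources used here. Reads of overlapping genes may therefore not be told apart. The deposited files give the authors' read count per Ensembl gene, with the CPM the authors computed from the library total and the RPKM they computed per kilobase. Deposited CPM and RPKM were checked against the counts and not used further. Symbols were found for 40254 identifiers, and 1134 without one stayed in the tests.

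The test was that of edgeR 4.0.16 under R 4.3.3 (quasi-likelihood F test, robust, TMM, filterByExpr with minimum count 10 and total 15), with two-sided p-values adjusted by Benjamini-Hochberg over all genes tested and a threshold of 0.05. Standard errors are the log2 fold change over the square root of F. Astrocyte genotypes were compared on the 8 astrocyte libraries. The other contrasts came from 1 fit of 4 groups to all 12 libraries, with genotypes weighted equally between fractions. The fits were also run on simulated counts with known fold changes, and the outcome is not given here. The simulated libraries were independent, so they cannot check the fits for fractions that share an animal. The members and lists were chosen with earlier results of these data known, and the wider lists are not independent of them. Every member is given. Values by library are given for those with the smallest p by comparison (up to 6 between fractions, 4 by astrocyte genotype, 3 in the other contrasts) and the 3 highest per length. Of each wider list up to 3 genes with the smallest p are named if past the threshold.

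Animal numbers in the titles pair the fractions of 4 brains. Across genes, deviations of paired libraries from their group means had correlations r of 0.0823 (animal 201), 0.424 (202), 0.166 (203) and 0.404 (205). Unpaired libraries reached 0.312 (astrocytes WT 265 with flowthrough WT 201) and 0.123 (astrocytes aKO 208 with flowthrough aKO 203). With 2 flowthrough libraries a genotype their deviations mirror each other, so these values cannot check the pairing. Separate animals are the replicates within each group. The fit to all 12 libraries has no animal term and treats both fractions of a brain as independent. The pairing enters only in the alternative with an animal block. The alternatives were DESeq2's size factors, DESeq2 1.42.0, no count filter, limma 3.58.1 voom with sample weights, leaving out single libraries, counting library 202 as aKO, mitochondrial genes and Ttr left out, libraries aKO 222 and WT 265 left out, all libraries in 1 fit, and an animal block.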

Additional observations from a re-analysis of the deposited data

Results flagged for a closer look

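In aKO astrocytes 9 of the 33 lysosome genes had 1 library far from the other 4, by the gap to the nearest library relative to the whole range (above 0.71). Chance gives such a gap in about 1 in 20 independent groups, but the 33 genes were measured in the same libraries. The share of all genes with such a gap is not given here, so the count is not a result about lysosome genes. In 8 of the 9 the library was aKO 222 as the lowest. Its levels were 105 CPM for Lamp2, 52.8 CPM for Tpp1, 42.4 CPM for Lgmn, 22.2 CPM for Hexa and 25.1 CPM for Asah1. They were 18.9 CPM for Lipa, 29.9 CPM for Atp6v1h and 70.3 CPM for Atp6ap1. The next lowest aKO libraries had 259 CPM for Lamp2, 186 CPM for Tpp1, 188 CPM for Lgmn and 114 CPM for Asah1. The ninth was Ctsl, for which aKO 208 was highest at 425 CPM, with the next library at 255 CPM.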

How the results depend on the processing

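Between 6 and 10 lysosome genes were lower in astrocytes than in flowthrough under 21 alternatives (7 as reported). Grn, Lgmn, Ctsz and Ctsd passed in all 21, Hexa and Naglu in 20 and Gusb in 13. DESeq2 called 10, adding Ctsa (-1.24), Ctsl (-1.14) and Npc2 (-1.04). Leaving out 1 library gave 6 to 8. Without flowthrough aKO 205 the 6 genes shared 4 with the 7, and Ctsl and Npc2 entered. The animal block left 7, of which 6 are among the 7 reported. Higher genes numbered 1 (Atp6v1h) without aKO 222 and WT 265 (background 12.3%) and with the replicate block (background 15.9%), and 0 otherwise. By genotype the count was 0 under every alternative run (16 in astrocytes, 19 in flowthrough, 21 for the difference). In the fit with the replicate block, made on 8 libraries, only the calls of Gusb, Scarb2 and Atp6v1h differed from those reported. Gusb did not pass in the same 8 libraries without a block either. Of the wider lists 13 to 24 genes were lower and 0 to 8 higher under the alternatives (17 and 0 as reported).

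Signs turned for 7 genes with values near 0. Without aKO 222 and WT 265, with the replicate block and in the same 8 libraries with no block, the log2 fold changes between fractions were 0.27, 0.24 and 0.27 (Lamp2), 0.0409, 0.0388 and 0.0864 (Glb1), 0.107, 0.0949 and 0.120 (Psap), 0.21, 0.27 and 0.21 (Asah1) and -0.12, -0.11 and -0.27 (Atp6v0c). Lamp2 was 0.0163 with limma voom and 0.0187 with library 202 as aKO. Ctsf was 0.0392 with no block in the 8 libraries. Npc1 was -0.00453 with DESeq2's size factors and -0.00420 with DESeq2. With 1 library left out the ranges were -0.37 to 0.21 (Lamp2), -0.20 to 0.45 (Npc1), -0.32 to 0.00773 (Ctsf), -0.49 to 0.0400 (Glb1), -0.51 to 0.16 (Psap), -0.37 to 0.26 (Asah1) and -0.28 to 0.75 (Atp6v0c). The cause was not tested. Scaling by library total gave summed levels of 6435 CPM in astrocytes and 11690.5 CPM in flowthrough. On that scale aKO flowthrough libraries 203 and 205 had 8454 and 4751 CPM, both within the astrocyte range of 2886 to 10345 CPM. WT flowthrough libraries 201 and 202 had 16115 and 17441 CPM.

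Flowthrough holds 2 libraries a genotype, so its genotype contrasts lean on the spread of all 12 libraries. Leaving out 1 of them leaves a lone library that is assumed to vary like the other groups.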
